A study of Rattus norvegicus with 6 samples.

Results

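The expression of 8 transcription factors of the neural crest glial lineage was followed in olfactory ensheathing cells (OECs) of the rat, glia that wrap the axons of the olfactory nerve, in 3 cultured populations. The genes were Sox10, Sox2, Foxd3, Egr2, Pou3f1, Pax3, Tfap2a and Zeb2. They were chosen by name, with earlier results of these data known. All probe sets annotated with 1 of these symbols alone were taken. This gave 20 of the 39898 probe sets on the arrays (5 on U34A and 15 on RAE2.0) for 7 of the 8 genes. Pax3, a paired-box factor of the early crest, matched no probe set by this rule and was not analysed here.

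OEC Ep cells were primary cultures from the olfactory nerve layer of Wistar rats aged 21 days, grown for 1 week with less than 3 population doublings. OEC Lp cells came from rats of the same strain and age and had gone through over 50 doublings. TEG3 is 1 clonal line from Wistar rats aged 60 days, made with a plasmid that encodes the large T antigen of SV40. All 3 populations were grown in DMEM with 3% serum, 20 µg/ml bovine pituitary extract and 2 µM forskolin, an activator of adenylyl cyclase. The labels of OEC Ep and of OEC Lp state over 90% purity from immunostaining. There were 2 RNA pools of 3 cultures each per population, and in OEC Ep each culture came from 1 rat. Each population has 1 U34A and 1 RAE2.0 array. The design text names U34A arrays alone and does not say which pool went on which array, so p-values measure the spread between these arrays, which may be technical.

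SOX10 is an HMG-box factor that neural crest glia keep from the migrating crest cell to the mature Schwann cell, and it binds regulatory regions of genes such as Erbb3 and Mitf. In the Schwann lineage SOX2 and FOXD3 act in immature cells, whereas POU3F1 (Oct6) and then EGR2 (Krox20), working with SOX10, drive myelination. ZEB2 is a zinc-finger repressor of inhibitors of Schwann cell differentiation, and TFAP2A is an AP-2 factor of the crest and of Schwann cell precursors. OECs arise from the neural crest and share many genes with Schwann cells that do not myelinate.

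The promoters of 3 of the genes are shown because they belong to genes with different orders of signal over the populations: Sox2 and Zeb2 were highest in OEC Ep, and Egr2 in OEC Lp. RefSeq's promoter table (build GRCr8) held 5 of the 8 genes (Sox2, Foxd3, Egr2, Pax3 and Zeb2). Each sequence is the 250 bases before the annotated start of the gene, in the gene's own direction. Sox2 lies at chr2:119464881-119465130 on the + strand, Zeb2 at chr3:49754324-49754573 on the - strand, and Egr2 at chr20:21054442-21054691 on the - strand. Capitals mark matches to the 8 motifs that were searched.
Sox2: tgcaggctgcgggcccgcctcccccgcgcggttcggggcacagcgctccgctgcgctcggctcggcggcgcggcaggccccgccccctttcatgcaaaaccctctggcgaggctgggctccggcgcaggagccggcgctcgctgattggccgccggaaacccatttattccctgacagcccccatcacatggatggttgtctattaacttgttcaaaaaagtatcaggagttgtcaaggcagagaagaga
Zeb2: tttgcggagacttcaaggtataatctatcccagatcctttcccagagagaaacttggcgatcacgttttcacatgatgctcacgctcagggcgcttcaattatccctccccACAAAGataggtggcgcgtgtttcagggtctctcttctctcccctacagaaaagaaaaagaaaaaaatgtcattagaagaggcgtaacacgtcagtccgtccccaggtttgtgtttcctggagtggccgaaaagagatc
Egr2: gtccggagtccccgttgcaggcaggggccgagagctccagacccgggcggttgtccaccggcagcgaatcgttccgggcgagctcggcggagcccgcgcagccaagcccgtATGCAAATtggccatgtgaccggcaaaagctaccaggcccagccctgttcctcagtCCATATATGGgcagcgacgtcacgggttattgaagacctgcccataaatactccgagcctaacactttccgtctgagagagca
The motifs were read on both strands, and the share of 27457 rat promoters of this length that hold each was the POU octamer ATGCAAAT (1.5%), the SOX cores ACAAAG (16%) and ACAATG (10.9%), the EGR site GCGNGGGCG (4.53%), the AP-2 site GCCNNNGGC (13%), the ZEB box CACCTG (15.6%), the cAMP response element TGACGTCA (1.7%) and the CArG box (1.5%). The Egr2 window held the POU octamer 139 bases and a CArG box 83 bases before the start. In Zeb2 a SOX core, ACAAAG, stood 139 bases before the start. The Foxd3 window held TGACGTCA 225 bases before the start, and the Sox2 and Pax3 windows held none of the 8 motifs. Each match describes letters in the window and is no evidence of binding.

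The deposited values are MAS5 signals on a linear scale. A floor was set at the 40th percentile of signals of each array type (128.4 on U34A and 168 on RAE2.0), since order below it is not read. In all, 16 of the 20 probe sets of these genes exceeded the floor on at least 1 of 3 arrays. The share of all probe sets above the floor ranged over the U34A arrays from 59.2 to 61.5% and over the RAE2.0 arrays from 59.1 to 61.8%, and the GAPDH 3'/5' ratio, which rises as RNA degrades, on U34A read 1.96 for OEC Ep, 1.52 for OEC Lp and 1.54 for TEG3 and lay between 0.981 and 1.02 on RAE2.0. Of 15 OEC and Schwann cell marker genes on RAE2.0, OEC Ep had 15 above the floor, OEC Lp 5 and TEG3 4. Among them S100b had an RAE2.0 signal of 40365 in OEC Ep and was at the floor in the other populations.

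Sox10 had high signal in OEC Ep and signal near or below the floor in OEC Lp and TEG3. On U34A it read 2904 for OEC Ep, 11 for OEC Lp and 201 for TEG3. The RAE2.0 signals were 5743, 123 and 233 in the same order. OEC Ep was far above both other populations on each array type, and OEC Lp was below the floor on both. Of the 8 genes, Sox10, Foxd3 and Egr2 could be tested, because they passed on both array types. In limma, with Benjamini-Hochberg adjustment over 3131 genes, Sox10 was lower in OEC Lp than in OEC Ep by a log2 difference of -4.80 ± 0.335 (SE; 95% interval -5.63 to -3.96; 2 arrays per population; adjusted p = 0.00469), at least 27.8-fold. OEC Lp was set to the floor on both types, so -4.80 is a bound. Its SE and interval come from floored values and do not limit how much lower OEC Lp was. In TEG3 Sox10 was lower than in OEC Ep by -4.24 ± 0.335 (95% interval -5.07 to -3.40; adjusted p = 0.0059), an 18.9-fold difference. On floored values TEG3 minus OEC Lp was 0.56 with an interval of -0.28 to 1.40 (limma adjusted p = 0.518). OEC Lp was at the floor on both types and TEG3 above it, so 0.56 is a lower bound. How far these populations differ is not read. Sox10 was the 1 of 3 tested genes called in each comparison with OEC Ep, where 6.13% of all genes tested were called for OEC Lp (4.02% lower and 2.11% higher) and 4.34% for TEG3 (3.7% lower and 0.639% higher). None of the 3 was called between TEG3 and OEC Lp (limma; 1 at an unadjusted p under 0.05), where 1.21% of genes were (1.02% lower and 0.192% higher). Both calls were lost with no filter on dim probe sets (limma adjusted p = 0.13 and 0.108) and with no replicate block, which here is the array type (adjusted p = 0.107 and 0.127), and the TEG3 call also with no floor (0.112) or with only the 4 arrays of the populations compared (0.0998). The call was lost for OEC Lp without any 1 of the 4 arrays compared, and it was lost for TEG3 without any 1 of the 6 arrays, with log2 values from -5.14 to -4.46 and from -4.58 to -3.90 respectively.

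Total RNA of whole cultures was measured, so fewer cells of a type and less RNA per cell cannot be told apart. Microglia and macrophage markers moved with the same populations. Of 18 such markers 17 had a RAE2.0 probe set. The summed RAE2.0 signal of the list was 78267 for OEC Ep, 4190 for OEC Lp and 2431 for TEG3, and 15, 3 and 4 of the 17 genes were above the floor. On U34A the sums were 33402, 2092 and 1999, with 9, 5 and 3 of 12 genes above the floor. In limma 5 of 8 tested were lower than in OEC Ep in each of the other populations, and none higher. Of all genes tested 4.02% were lower in OEC Lp and 3.7% in TEG3. Aif1, C1qb, Cd53 and Ctss, among those called, passed through OEC Ep alone on both types, so their direction follows from the filter. The other called gene was Lyz2. The part of the microglia and macrophage markers in the results for Sox10, Sox2 and Zeb2 was not tested.

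**Figure D1:**
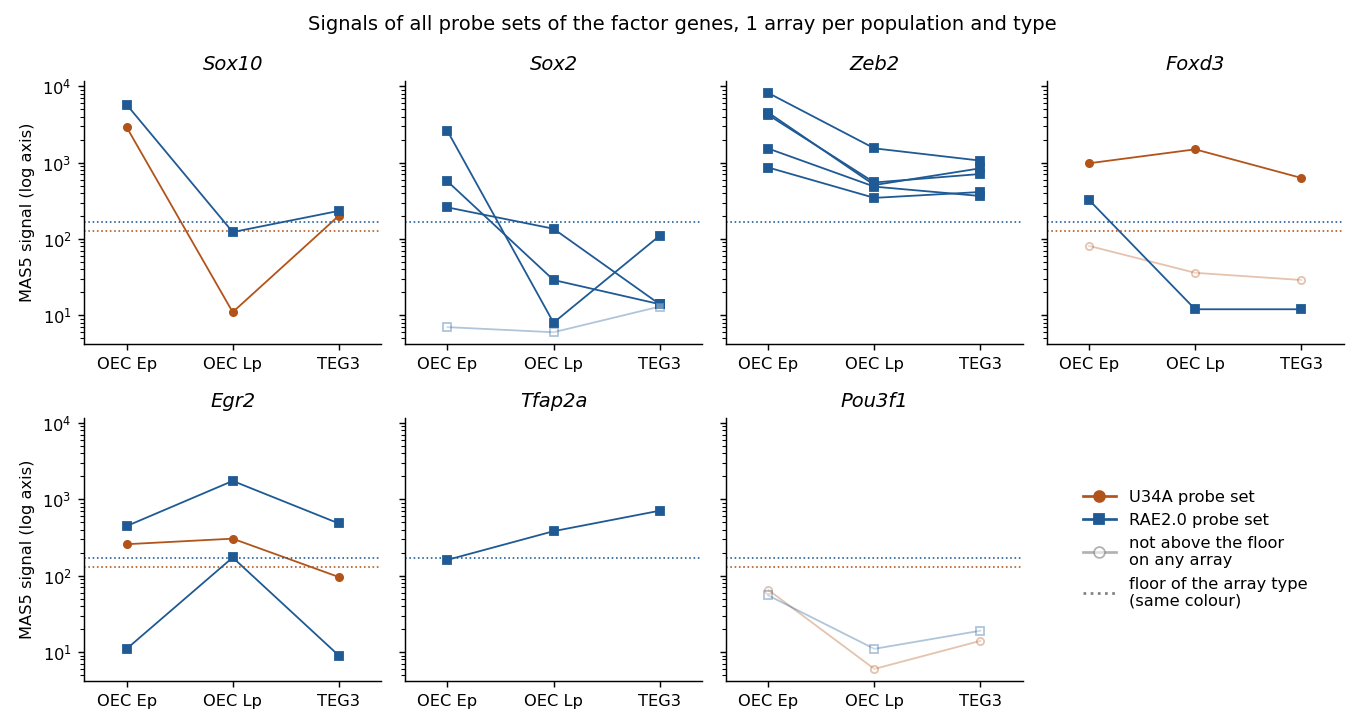
Deposited MAS5 signal (log axis) of each probe set of 7 genes in OEC Ep, OEC Lp and TEG3, with 1 array per point; circles are U34A, squares RAE2.0, open pale symbols probe sets not above the floor on any array, and dotted lines the floors. Sox10 and all passing Sox2 and Zeb2 probe sets were highest in OEC Ep, Egr2 in OEC Lp and Tfap2a in TEG3.

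Sox2 encodes an HMG-box factor of neural stem cells and immature Schwann cells, and it was above the floor in OEC Ep alone. It has 4 probe sets on RAE2.0 and none on U34A, so its values come with no test. The 3 that passed read 259, 2590 and 568 in OEC Ep. In OEC Lp they read 136, 8 and 29, and in TEG3 14, 110 and 14, all below the floor. These probe sets passed through OEC Ep alone, so its place as the highest follows from the filter. The bound on its ratio to either other population ranged from 1.54 to 15.4 among them. The fourth probe set, at 7, 6 and 13, never exceeded the floor. Averaged on the log scale, Sox2 was at least 4.32-fold lower in OEC Lp and in TEG3 than in OEC Ep.

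Zeb2 was detected in all 3 populations and was highest in OEC Ep. Its product represses genes that hold back myelination and is also a factor of epithelial-mesenchymal transition and of macrophages. All 5 RAE2.0 probe sets were above the floor everywhere, with signals of 862 to 8152 (median 4202) in OEC Ep, 345 to 1536 (median 508) in OEC Lp and 365 to 1061 (median 709) in TEG3. OEC Ep was highest in 5 of 5, by 2.50 to 8.87-fold over OEC Lp and 2.09 to 7.68-fold over TEG3. These probe sets share the gene and the same 3 arrays, and are not replicates of a population. As a gene Zeb2 read 2894, 590 and 625, which is 4.90-fold lower in OEC Lp and 4.63-fold lower in TEG3 than in OEC Ep. OEC Lp lay above TEG3 in 2 of the probe sets and below in 3, and the TEG3 minus OEC Lp log2 difference was 0.08.

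Foxd3, a forkhead factor of the migrating crest and of glial precursors, gave different orders on the array types. On RAE2.0 its probe set read 323 in OEC Ep and 12 in both OEC Lp and TEG3, at least 1.92-fold lower. That probe set passed through OEC Ep alone, so its order follows from the filter. On U34A the probe set that passed read 980, 1491 and 630, highest in OEC Lp. Its name carries Affymetrix's suffix for a sequence family, so related forkhead transcripts may add to it. The other U34A probe set read 81, 36 and 29, below the floor throughout. Foxd3 did not pass the test in any comparison (limma adjusted p = 0.88 and 0.373 for OEC Lp and TEG3 against OEC Ep, and 0.598 between TEG3 and OEC Lp). Its log2 difference of OEC Lp from OEC Ep was 0.61 on U34A and -0.94 on RAE2.0.

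Egr2, the zinc-finger factor of myelinating Schwann cells and an immediate-early gene, read highest in OEC Lp on both array types. The U34A signals were 258 for OEC Ep, 305 for OEC Lp and 96 for TEG3, the last below the floor. One RAE2.0 probe set read 446, 1740 and 483 and the other 11, 173 and 9, which passed through OEC Lp alone, just above the floor of 168. TEG3 was lowest on U34A and level with OEC Ep on RAE2.0. In limma no difference passed. OEC Lp minus OEC Ep was 0.62 ± 0.370 (log2, SE; 95% interval -0.30 to 1.55; adjusted p = 0.445). TEG3 minus OEC Lp was -1.10 with an interval of -2.02 to -0.17 (limma adjusted p = 0.258). TEG3 minus OEC Ep was -0.47 (limma adjusted p = 0.508). All of these rest in part on values set to the floor, so 0.62 and -1.10 are bounds. For -0.47 both populations were at the floor on 1 RAE2.0 probe set, so its size is not read. The SE and intervals come from floored values and do not limit the differences.

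Pou3f1, the POU-domain factor that acts before Egr2 in promyelinating Schwann cells, was not above the floor on any array. Its U34A signals were 65 for OEC Ep, 6 for OEC Lp and 14 for TEG3, and its RAE2.0 signals 55, 11 and 19. No difference is read from values under the floor.

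Tfap2a was higher in OEC Lp and TEG3, where Sox10 was lower. Its single RAE2.0 probe set read 161 in OEC Ep, just below the floor, 382 in OEC Lp and 708 in TEG3. That probe set passed through OEC Lp and TEG3 alone, so the place of OEC Ep as the lowest follows from the filter. Tfap2a was at least 2.27-fold higher in OEC Lp and at least 4.21-fold higher in TEG3 than in OEC Ep. The TEG3 signal was 1.85-fold that of OEC Lp. No test was made of these. Of the 3 genes on RAE2.0 alone, Sox2 and Zeb2 were at least 2-fold lower and Tfap2a at least 2-fold higher in each comparison with OEC Ep. Among all 8411 genes on RAE2.0 alone, 9.52% were 2-fold lower and 10.1% higher in OEC Lp, and 9.34% lower and 12.6% higher in TEG3. Between TEG3 and OEC Lp none of the 3 passed 2-fold, against 8.03% lower and 9.74% higher of all. The comparisons with OEC Ep share its arrays.

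**Figure D2:**
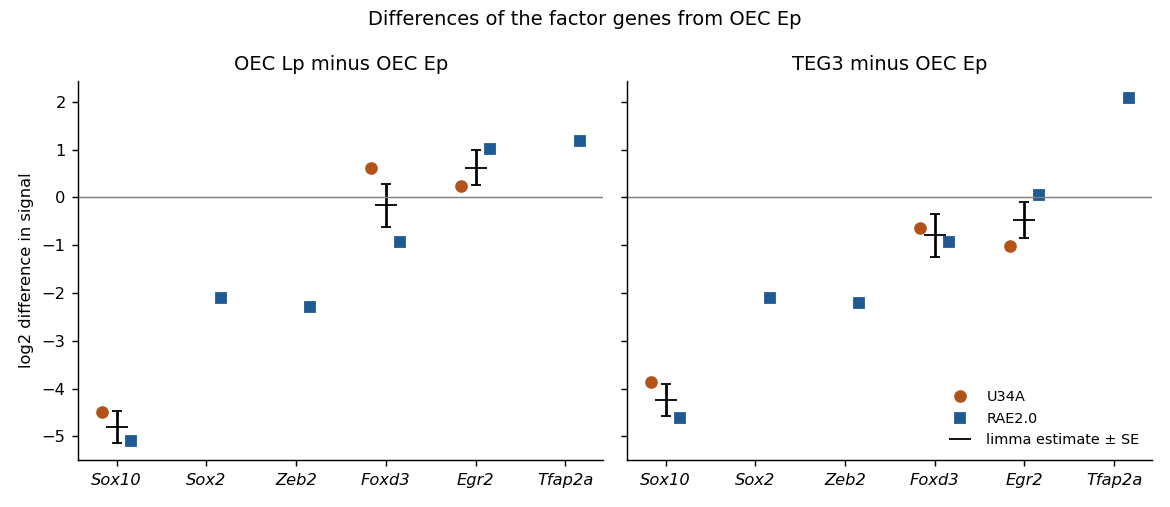
Log2 difference in signal from OEC Ep of the 6 genes above the floor, in OEC Lp and in TEG3; circles are U34A, squares RAE2.0 and bars the limma estimate ± SE for genes on both types. Sox10 in OEC Lp, and Sox2, Foxd3 and Tfap2a in both, hold a value at the floor. So do 1 RAE2.0 probe set of Egr2 and, in TEG3, its U34A probe set. Points drawn from such values are bounds. Zeb2, measured throughout, is at -2.29 and -2.21, and Sox10 in TEG3 is near -4.24.

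Direct targets of SOX10 were mostly lower where Sox10 was lower. Of 17 listed targets 13 had a probe set and 6 were tested. In OEC Lp 4 of 6 were lower than in OEC Ep and none higher (limma; median log2 -2.36, against 0.11 for all genes), and in TEG3 4 were lower and none higher (median -2.24, against 0.04). Of all genes tested 4.02% were lower in OEC Lp and 3.7% in TEG3. On RAE2.0 Erbb3 and S100b passed through OEC Ep alone, so their direction there follows from the filter. Erbb3, the neuregulin receptor of the lineage, fell by 2.75 ± 0.365 on the log2 scale in OEC Lp (adjusted p = 0.0162), at least 6.71-fold, and at least 8.50-fold in TEG3 (adjusted p = 0.0165). Cntf, a survival factor that Schwann cells store, was 9.28-fold lower in OEC Lp (limma adjusted p = 0.00912) and 5.36-fold lower in TEG3 (adjusted p = 0.0213). Pmp22, a myelin membrane protein, was 3.92-fold lower (adjusted p = 0.0349) and 4.18-fold lower (adjusted p = 0.0403). S100b, a calcium-binding glial marker, was at least 107-fold and at least 106-fold lower (adjusted p = 0.00879 and 0.0108). Mbp, whose product compacts myelin, was -1.37 in OEC Lp (adjusted p = 0.0868), and Mag, an adhesion molecule of myelin, -0.12 (adjusted p = 0.875). None of the 6 was called between TEG3 and OEC Lp (limma; 0 at an unadjusted p under 0.05; median -0.04).

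Among SOX10 targets on RAE2.0 alone, Mitf, the master regulator of melanocytes, was at least 2.70-fold above OEC Ep in OEC Lp, the opposite direction to Sox10. Dct, a melanin enzyme, was at least 3.04-fold lower in OEC Lp and 2.69-fold lower in TEG3. Mia was 2.52-fold and at least 3.98-fold lower. Other melanocyte genes did not share one order with Mitf. Tyrp1, which encodes an enzyme of melanin synthesis, read 7307 and 1635 on its 2 probe sets in OEC Ep, 22 and 169 in OEC Lp, and 8 and 18 in TEG3. Pmel, the melanosome matrix protein, read 2219, 39 and 579. Tyr and Mlana, defining markers of pigment cells, were below the floor in all populations, at 4, 7 and 11 and at 27, 9 and 9.

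Targets and corepressors of EGR2 did not move as a group. Of 10 listed, 9 had a probe set and 5 were tested. Pmp22 was the 1 called gene in each comparison with OEC Ep, and none was called higher (limma, medians -0.12 and -0.24). Among all genes tested, 4.02% were lower in OEC Lp and 3.7% in TEG3. This list shares members with the SOX10 list, Pmp22, Mbp and Mag among them. Nab2, a corepressor that EGR factors induce and that then limits them, read 766 for OEC Ep, 3811 for OEC Lp and 1390 for TEG3 on RAE2.0, highest in OEC Lp as Egr2 was. It was 4.98-fold above OEC Ep in OEC Lp and 2.74-fold lower in TEG3 than in OEC Lp. Ndrg1, a gene of myelinating Schwann cells, read 1989, 4905 and 485. Nab1, the relative of Nab2, differed by 0.47 in OEC Lp (limma adjusted p = 0.524), and Prx, a gene of mature myelinating cells, by 0.52 (adjusted p = 0.662). None of the 5 was called between TEG3 and OEC Lp (limma; 0 at an unadjusted p under 0.05).

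Most markers of OECs and Schwann cells were lower in OEC Lp and TEG3 than in OEC Ep. Of 17 listed, 15 had a probe set and 13 were tested, of which 10 were lower in OEC Lp and 9 in TEG3 than in OEC Ep, and none higher (limma; medians -4.26 and -3.67). Of all genes tested 4.02% were lower in OEC Lp and 3.7% in TEG3. On RAE2.0 S100b, L1cam, Erbb3, Gfap, Fabp7, Ngfr and Scn7a passed through OEC Ep alone, so their direction there follows from the filter. Fabp7 passed through OEC Ep alone on U34A too, so its call as lower has a direction fixed on both types. Npy, a neuropeptide of ensheathing glia, was at least 22.6-fold lower in OEC Lp (adjusted p = 0.00867) and at least 16.7-fold lower in TEG3 (adjusted p = 0.0108). Gfap, an intermediate filament of glia, was at least 19.3-fold lower in each on RAE2.0. Gap43 was not called in OEC Lp or TEG3 against OEC Ep (limma adjusted p = 0.481 and 0.0797). Frzb, on RAE2.0 alone, read 177 for OEC Ep, 177 for OEC Lp and 168 for TEG3 after the floor. S100b and Erbb3 are among the genes that stand in both this list and that of SOX10 targets.

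Among regulators of the Schwann cell state 1 of the tested genes was called. Of 17 listed, 16 had a probe set and 11 were tested. Erbb3 was the 1 gene called, as lower, in each comparison with OEC Ep (limma, medians -0.24 and -0.77). Among all genes tested, 4.02% were lower in OEC Lp and 3.7% in TEG3. Jun, the factor of the repair Schwann cell, read 3650 for OEC Ep, 814 for OEC Lp and 666 for TEG3 on U34A, and 4328, 2561 and 1101 on RAE2.0. Its log2 differences were -1.46 in OEC Lp (adjusted p = 0.131) and -2.21 in TEG3 (adjusted p = 0.0516). Id1, an inhibitor of basic helix-loop-helix factors, was 2.04 in OEC Lp (adjusted p = 0.123). Adgrg6, the receptor that triggers myelination through cAMP, read 2071, 669 and 475 on RAE2.0.

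**Figure D3:**
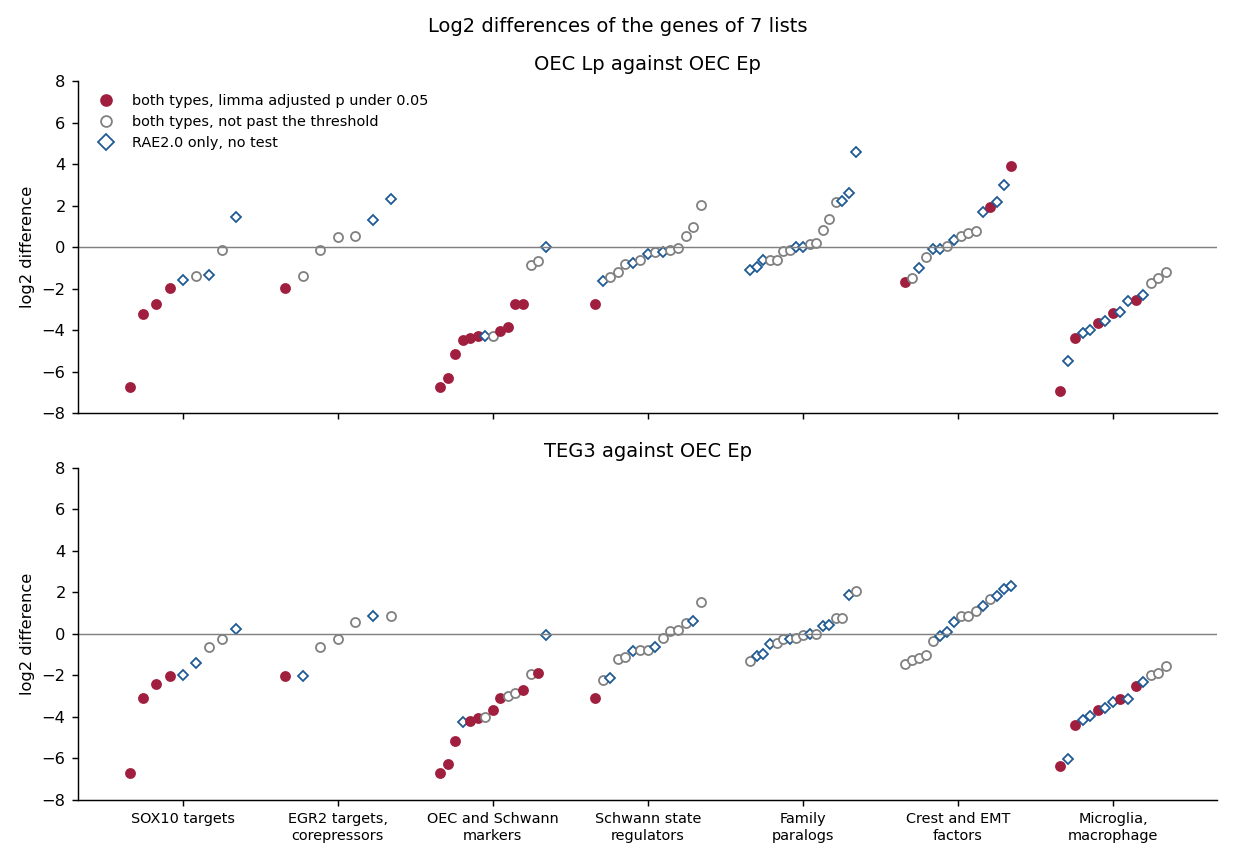
Log2 difference of each gene of 7 lists, OEC Lp against OEC Ep above and TEG3 against OEC Ep below; filled circles passed limma at adjusted p under 0.05, open circles did not, and diamonds are genes on RAE2.0 alone with no test. SOX10 targets (4 of 6 called) and OEC markers (10 and 9 of 13 called) lie mostly below 0, as do microglial genes (5 of 8 called in each), while family paralogs lie on both sides of 0. Genes that passed through OEC Ep alone could lie only below 0.

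Of 36 listed paralogs of the 8 factors 30 had a probe set and 9 were tested, and limma called none in any comparison. At an unadjusted p under 0.05 there were 2 in OEC Lp and 2 in TEG3 relative to OEC Ep, and 3 between TEG3 and OEC Lp. Zeb1, the paralog of Zeb2, read 126 for OEC Ep, 318 for OEC Lp and 113 for TEG3 on U34A, and 787, 2066 and 564 on RAE2.0. Zeb1 was highest in OEC Lp on both types, with a log2 difference from OEC Ep of at least 1.35 (limma adjusted p = 0.0776). Zeb2 was low in both OEC Lp and TEG3, whereas Zeb1 in TEG3 lay below OEC Ep on RAE2.0.

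Tfap2b, the AP-2 paralog, had the largest ratio between OEC Lp and OEC Ep among the relatives on RAE2.0 alone. Its 3 RAE2.0 probe sets read 249, 253 and 196 in OEC Ep, 10216, 3515 and 4565 in OEC Lp, and 241, 187 and 131 in TEG3. OEC Lp was 23.7-fold above OEC Ep and at least 27.9-fold above TEG3, whereas Tfap2a was highest in TEG3. Foxd2 read 119, 1027 and 228 and was at least 6.11-fold above OEC Ep in OEC Lp. Pax9, a paired-box factor, read 35, 779 and 123, and Pou3f3, a relative of Pou3f1, read 158, 71 and 610. Pax9 passed through OEC Lp alone and Pou3f3 through TEG3 alone, so where each was highest follows from the filter. Egr1, an immediate-early relative of Egr2, read 2241 for OEC Ep, 18532 for OEC Lp and 15598 for TEG3 on RAE2.0 (log2 2.18 in OEC Lp, limma adjusted p = 0.0717, and 2.04 in TEG3, adjusted p = 0.0918). Egr1 was high in TEG3, where Egr2 was not.

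**Figure D4:**
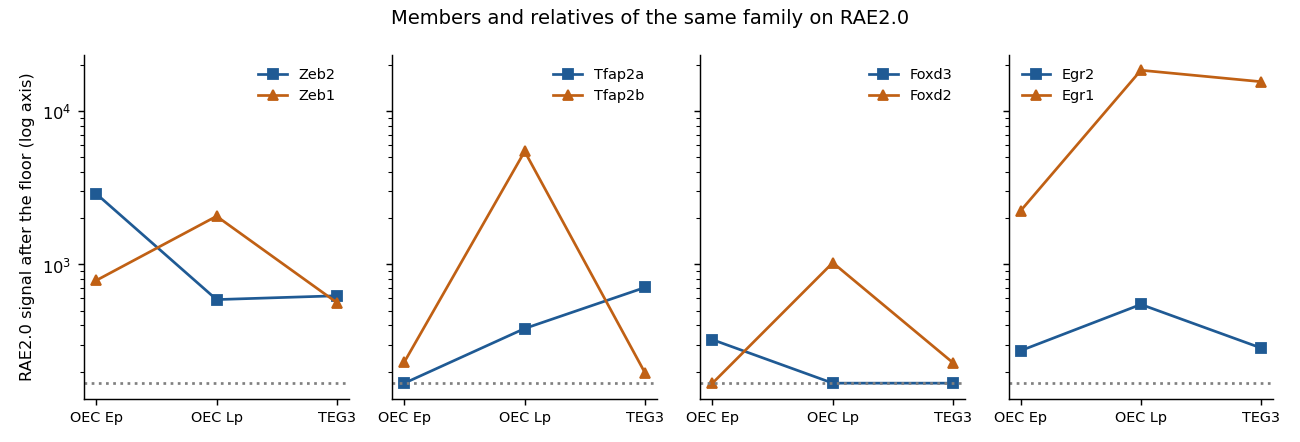
RAE2.0 signal after the floor (log axis, dotted line the floor) of Zeb2, Tfap2a, Foxd3 and Egr2 (squares) and of 1 relative each (triangles), with 1 array per population. Zeb1, Tfap2b, Foxd2 and Egr1 were all highest in OEC Lp, as was Egr2, while Zeb2 and Foxd3 were highest in OEC Ep and Tfap2a in TEG3. Foxd3 passed through OEC Ep alone, so its place follows from the filter.

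Other factors of the crest and of epithelial-mesenchymal transition moved in both directions. Of 22 listed, 17 had a probe set and 9 were tested. In OEC Lp against OEC Ep 2 were higher and 1 lower (limma, median 0.54), where 2.11% of all genes tested were higher and 4.02% lower. Msx1, a homeobox factor of the crest border, was at least 15.1-fold higher in OEC Lp (log2 3.91 ± 0.367, adjusted p = 0.00879), and Prrx1, a mesenchymal homeobox factor, at least 3.75-fold higher (adjusted p = 0.0316). Ets1, a factor of the cranial crest, was 3.25-fold lower (adjusted p = 0.0384). On RAE2.0 alone Twist1, which encodes a mesenchymal helix-loop-helix factor, read 1342 in OEC Lp and 423 in TEG3 and was at the floor in OEC Ep. TEG3 had the highest Meis1 and Meis2, homeobox cofactors, at 4.42-fold and at least 4.89-fold above OEC Ep. No crest factor was called in TEG3 against OEC Ep (limma; 6 at an unadjusted p under 0.05) or against OEC Lp (3 at an unadjusted p under 0.05).

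The genes whose profile was nearest to that of Sox10 were found by the Euclidean distance of log2 signals centred within each array type, over 6 arrays. They were Gpx3, an extracellular glutathione peroxidase (distance 0.342), Npy (0.514), Ndrg2 (0.724), Fez1 (0.826) and L1cam, a cell adhesion molecule of axons and glia (0.830). The median distance over 3130 genes was 5.45. This likeness rests on 3 populations and on values at the floor in OEC Lp, and Npy and L1cam also stand in the list of OEC markers.

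**Figure D5:**
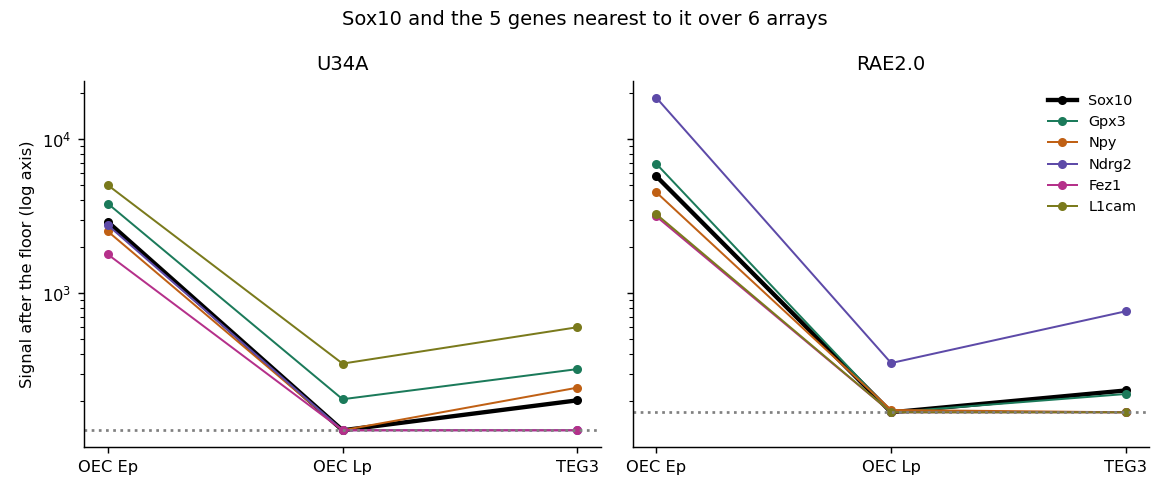
Signal after the floor (log axis) of Sox10 (thick line) and its 5 nearest genes on U34A and RAE2.0, with 1 array per point and the floor dotted. All 6 genes were highest in OEC Ep, from 1785 to 5032 on U34A and from 3148 to 18589 on RAE2.0. The 5 were picked for nearness to Sox10 on these same arrays, so their order follows from the choice.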

How the data were processed

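Rat total RNA was hybridised to 6 Affymetrix arrays, 1 per population and array type. The deposited values are MAS5 signal intensities of whole numbers, per the labels and the design text, which name Microarray Suite 5.0; the setting of the filter on probe sets is not given in the sources used here. Arrays were scaled to the same 2% trimmed mean within a type, signals were floored at the 40th percentile, and control probe sets (59 and 57) were left out. Passing probe sets with 1 symbol were averaged as log2 values per gene, giving 3131 genes on both types and 8411 on RAE2.0 alone. The limma 3.58.1 fit (R 4.3.3) of genes on both had terms for population and array type, the replicate block (2 residual and 3.56 prior degrees of freedom), and called at a Benjamini-Hochberg adjusted p under 0.05. The labels give no replicate numbers; replicates were numbered by array type, and probe sets differ between types, so the type term stays in the model. No test was made for the RAE2.0-only genes, which rest on 1 array per population. A fold with a passing probe set at the floor is written "at least". The code was tested on simulated data.

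All probe sets of the 8 genes are given. From each of 14 lists the 4 genes with the lowest p and, on RAE2.0 alone, the 4 largest ratios per comparison could be named, plus the 5 genes nearest to Sox10. Tyr and Mlana were added as defining markers, and some other genes because their direction follows from the filter. The genes and lists were chosen with earlier results of these data known. Alternatives changed the floor, filter, scaling, probe set summary, block and arrays used.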

Additional observations from a re-analysis of the deposited data

How the results depend on the processing

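Genes called (limma) for OEC Lp against OEC Ep were 192, and 66 with no floor, 1 with no filter on dim probe sets, 77 with probe sets above the floor on all 3 arrays, 41 with only the 4 arrays compared and 0 with no replicate block (193 at an unadjusted p under 0.05). For TEG3 against OEC Ep they were 136, and 11, 1, 86, 0 and 0 (623 and 172 at an unadjusted p). For TEG3 against OEC Lp they were 38, and 4 with the floor at the 20th percentile, and 0 with no floor, no filter, only 4 arrays or no replicate block (437, 469, 375 and 110 at an unadjusted p). Leaving out 1 array gave 0 to 41, 0 to 0 and 0 to 0 calls.

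Of the 8 factors, 1 was called for OEC Lp against OEC Ep, Sox10, and 0 with no filter (adjusted p = 0.13 in limma) or no replicate block (0.107); leaving out 1 array gave 0 to 1 (0.0347 to 0.243). For TEG3 against OEC Ep 1 was called, and 0 with no floor (0.112), no filter (0.108), only 4 arrays (0.0998) or no replicate block (0.127), and leaving out 1 array gave 0 to 0 (0.0998 to 0.246). In each of these Sox10 passed an unadjusted p under 0.05 and kept its direction. With the above-floor filter on all 3 arrays no factor could be tested.

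Foxd3 reversed in OEC Lp against OEC Ep to 0.29 without the OEC Ep RAE2.0 array and 0.53 without the OEC Lp RAE2.0 array, and in TEG3 against OEC Lp to 0.076 without the OEC Lp U34A array (leave-one-out ranges -0.87 to 0.53 and -1.32 to 0.076); the cause was not tested. Sox2, given without a test, read -4.52 in OEC Lp and -4.70 in TEG3 (log2) with no floor, -3.29 and -3.39 with the floor at the 20th percentile, and -3.95 in each from the brightest probe set. Zeb2 from its brightest probe set was -2.94 in TEG3 against OEC Ep and -0.53 against OEC Lp. Egr2 ranged from 0.17 to 1.08 in OEC Lp and from -0.93 to -0.018 in TEG3 against OEC Ep on leaving out 1 array, and was 1.1 in OEC Lp with quantile normalization and from the brightest probe set, with no call in any of these.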

Other observations

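Genes of other cell types also differed between the populations. Neurofilament genes were bright in OEC Ep alone: Nefl was at least 42.5-fold and Nefm at least 99.1-fold lower in OEC Lp, and 3 of 3 tested neuron markers were lower there (limma adjusted p = 0.00469 for both named). Of all genes tested 4.02% were lower in OEC Lp. Nefm passed through OEC Ep alone on both types, so its direction follows from the filter. Uchl1, a ubiquitin hydrolase, was the 1 of these neuron markers called between TEG3 and OEC Lp, at least 17.2-fold higher in TEG3 (adjusted p = 0.0232). Of 11 tested fibroblast and meningeal genes 2 were higher and 2 lower in OEC Lp than in OEC Ep, where 2.11% of all genes tested were higher. Thy1, 1 of the 2 lower, passed through OEC Ep alone on both types, so its direction follows from the filter. Col3a1, a fibrillar collagen, was 4.65-fold higher (limma adjusted p = 0.0234) and Postn, a matrix protein, at least 129-fold lower (adjusted p = 0.00469). On RAE2.0 alone Ogn, a matrix proteoglycan, was at least 54.8-fold higher and Foxc1, a meningeal forkhead factor, at least 12.6-fold higher in OEC Lp.

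Among 4 tested astrocyte genes Gja1, a gap junction protein, was 13.1-fold higher in OEC Lp (limma adjusted p = 0.0162) and Aldoc, a glycolytic enzyme, at least 6.05-fold lower (adjusted p = 0.0134). Of 4 oligodendrocyte genes 2 were lower in OEC Lp and 1 in TEG3, among them Cnp, a myelin enzyme, at 10.1-fold and 11.0-fold (limma adjusted p = 0.0162 and 0.0178). The other, Ugt8, passed through OEC Ep alone on both types, so its direction follows from the filter. Among all genes tested, 4.02% were lower and 2.11% higher in OEC Lp, and 3.7% lower in TEG3. Of 5 contractile genes 2 were lower in OEC Lp and 1, Cnn1, in TEG3, at least 3.75-fold (adjusted p = 0.0314). Cnn1 passed through OEC Ep alone on both types, so its direction follows from the filter. Neither of the 2 endothelial genes tested was called in limma in any comparison (0, 1 and 1 at an unadjusted p under 0.05).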
